A study of Mus musculus with 2 samples.

Results

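Complement components and receptors were followed by cell type in 2 droplet single-cell RNA libraries of mouse liver. The group holds 9 genes, chosen by symbol from the 32285 genes measured: the C1q chains C1qa, C1qb and C1qc, the components C3, C4b, Cfb and Cfp, and the anaphylatoxin receptors C3ar1 and C5ar1. Non-parenchymal cells, the liver cells other than hepatocytes, were taken after 8 weeks of intraperitoneal carbon tetrachloride (CCl4), which injures hepatocytes and leads to fibrosis. One library was from Mfap2+/+ (wild-type) animals and one from Mfap2-/- (knockout) animals, and both groups had received CCl4, so there was no uninjured control. Mfap2 encodes a microfibril-associated glycoprotein. Strain, age, sex and the number of animals per library were not given in the labels.

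Complement is a cascade of plasma proteins that marks targets, releases inflammatory peptides and forms a membrane pore. The classical pathway starts when C1q, built from A, B and C chains, binds antibody or other surfaces and activates C1r and C1s. C1s then cleaves C4 and C2. The alternative pathway amplifies C3 cleavage through factor B (Cfb) and is stabilised by properdin (Cfp). C3a and C5a, the released peptides, act on C3ar1 and C5ar1. In the liver, hepatocytes are known as the main source of most plasma components, whereas C1q and properdin come mainly from myeloid cells.

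The wild-type library held 82499307 unique molecular identifiers (UMIs, tags that count single RNA molecules) over 11783 barcodes, and the knockout library held 118226367 over 12872. Mfap2 had 212 UMIs in wild-type and 2 in knockout cells. Each cell was given the type for which most of 8 fixed marker genes were detected, with at least 3 and a lead of at least 1 over every other type. These names mean "like" that type. Of the cells kept, 8838 of 10336 wild-type and 9939 of 11428 knockout cells received a type. The 12 types with at least 50 cells in each library were ranked. Levels are counts-per-million (CPM) of all UMIs in the type, with 95% exact Poisson intervals, given for the wild-type library first and the knockout library after it. Ratios are log2 of the knockout level over the wild-type level, with 95% exact conditional intervals. Intervals cover counting error only. With 1 library per genotype there is no replicate check and no test, and genotype, animal and library preparation cannot be told apart. The libraries also differed in depth, with medians of 4685 and 6511 UMIs per barcode.

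All 9 genes lie on the minus strand of GRCm38 in the GENCODE M21 annotation. C1qa (4:136895917-136898803), C1qc (4:136889804-136893065) and C1qb (4:136880129-136886187) sit side by side within 18675 bases. C4b (17:34728380-34743882) and Cfb (17:34856374-34862518) lie within 134139 bases of each other, and C3 lies farther along the same chromosome (17:57203970-57228136). Cfp is at X:20925454-20931555, C3ar1 at 6:122847138-122856161 and C5ar1 at 7:16246743-16259540. Cfb overlaps a predicted gene on the same strand, Gm20547, which was not among the genes counted, so reads from it cannot be told apart from Cfb. C4b has a near-identical neighbour, C4a, which had 16 wild-type and 23 knockout UMIs.

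Promoter sequences from RefSeq (GRCm38.p6) were at hand for 6 of the 9 genes. The stretches of C1qb, C1qc and C3 are shown, because the C1q chains were found together in the same cells while C3 had other sources. Each runs 5′ to 3′ on the minus strand from 250 bases before the start site, and stops before any annotated exon.
C1qb, chr4:136886201-136886450: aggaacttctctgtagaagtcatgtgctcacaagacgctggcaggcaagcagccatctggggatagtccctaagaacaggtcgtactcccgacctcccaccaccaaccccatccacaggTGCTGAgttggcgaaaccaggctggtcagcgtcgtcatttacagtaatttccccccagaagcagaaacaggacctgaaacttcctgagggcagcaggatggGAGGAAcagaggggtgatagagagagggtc
C1qc, chr4:136893066-136893164: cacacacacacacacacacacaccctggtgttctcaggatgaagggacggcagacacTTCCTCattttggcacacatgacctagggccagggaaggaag
C3, chr17:57228137-57228386: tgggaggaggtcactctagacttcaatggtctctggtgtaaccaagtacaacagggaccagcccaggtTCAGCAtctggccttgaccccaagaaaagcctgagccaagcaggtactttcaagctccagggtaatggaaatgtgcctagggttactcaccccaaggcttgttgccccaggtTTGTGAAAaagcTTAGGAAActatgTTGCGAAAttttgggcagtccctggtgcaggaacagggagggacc
Capitals mark matches, on either strand, to GAGGAA (the core bound by the myeloid factor PU.1), TGCTGA (the core bound by MAF factors) or TTNNGNAA (a C/EBP pattern). TATAAA, and GAAA repeated after any 2 bases (an interferon response pattern), were searched too and have no match in these 3 stretches. In the whole window C3 has TATAAA 14 bases after the start and C1qc has TTNNGNAA 81 bases before it. TATAAA and the repeated pattern occur in 13.6% and 3.44% of promoters. GAGGAA begins 30 bases before the start of C1qb and, on the other strand, 193 bases before the start of C1qc. It occurs in 28.3% of 32851 mouse promoters. These shares are over a window from 250 bases before to 50 after the start, which is longer than the stretches shown. TGCTGA is found 131 bases before the start of C1qb and 182 before that of C3, and in 19.5% of promoters. TTNNGNAA begins at 3 places in C3, 70, 58 and 45 bases before the start. One place or more is found in 40.7% of promoters and 3 or more places in 3.6%. Of the other genes with a sequence, C3ar1 and C5ar1 have no GAGGAA in the whole window, and Cfp has it 6 and 22 bases after the start. C5ar1 has TTNNGNAA 157 bases before its start. These are letter matches and not binding sites, and no link between them and the cell types was tested.

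Macrophage-like cells were the highest of the 12 types for 6 of the 9 genes in the wild-type library, against 5.04% of 12294 genes with at least 500 UMIs, and for 5 in the knockout library, against 5.1%. C3 was highest in cholangiocyte-like cells in both, as were 21.2% and 20.8% of genes. C4b was highest in mesenchymal-like cells (stellate cells and fibroblasts), as were 11.2% and 11.9%. C5ar1 was highest in neutrophil-like cells, as were 4.76% and 4.86%. Cfb was highest in macrophage-like cells of the wild-type library and in patrolling-monocyte-like cells of the knockout library, as were 4.45% of genes there.

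In macrophage-like cells (2045 wild-type and 2130 knockout) all 9 genes were lower in the knockout library, where 38.0% of 15117 genes had a ratio below 0. C4b, Cfb and Cfp were lower by at least 2-fold, as were 1.55% of genes. The median ratio was -0.31 over the 9 genes and 0.15 over all genes. All 9 were also lower in classical-monocyte-like cells (38.1% of genes) and patrolling-monocyte-like cells (44.0%). The intervals of C4b, C3ar1 and C5ar1 included 0 in both of these types, and that of C1qb included 0 in classical-monocyte-like cells. The counts of lower genes given here are of signs, whether or not the interval included 0. Counts of 8 of 9 were found in endothelial-like cells (53.0%) and natural-killer-like cells (37.5%), and 7 of 9 in B-cell-like (42.0%) and T-cell-like cells (40.9%). Counts of 6 of 9 were found in neutrophil-like (46.6%), mesenchymal-like (39.2%) and cholangiocyte-like cells (42.3%). In type 1 dendritic-like cells 5 of 9 were lower (38.1%), and in type 2 dendritic-like cells 3 of the 7 with at least 20 UMIs (45.7%).

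**Figure D1:**
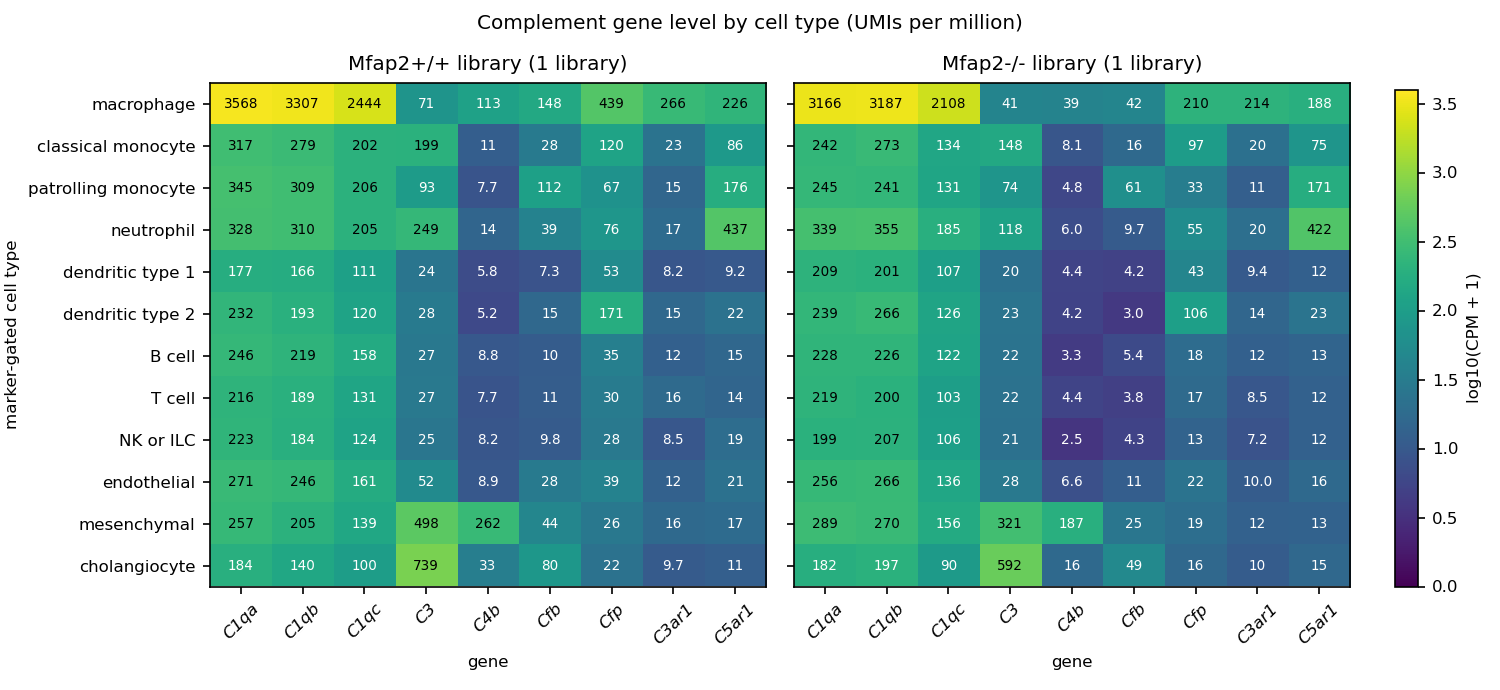
Level of the 9 complement genes (columns) in 12 marker-gated cell types (rows) in the Mfap2+/+ (left) and Mfap2-/- (right) library; numbers are CPM and the colour is log10(CPM + 1). The C1q chains and C3ar1 stand out in the macrophage row, C3 in the cholangiocyte and mesenchymal rows, and C5ar1 in the neutrophil row.

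The C1q chains were by far the most abundant of the 9. In macrophage-like cells C1qa stood at 3568 CPM (3543 to 3594) and 3166 CPM (3144 to 3187). C1qb stood at 3307 and 3187 CPM, and C1qc at 2444 and 2108 CPM. These are small differences, with log2 ratios of -0.17 (-0.19 to -0.16) for C1qa, -0.05 (-0.07 to -0.04) for C1qb and -0.21 (-0.23 to -0.20) for C1qc. Macrophage-like cells held 81.3% and 79.1% of all C1qa UMIs.

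C1q is assembled from equal numbers of the 3 chains, and their transcripts were found together. A UMI of each of the 3 chains was found in 93.3% and 92.6% of macrophage-like cells, and no chain was found in 0.489% and 0.657%. Of the C1q UMIs in these cells, 38.3% were C1qa, 35.5% C1qb and 26.2% C1qc in the wild-type library. In the knockout library the shares were 37.4%, 37.7% and 24.9%. The share of C1qb was higher in the knockout library in 12 of 12 cell types, and that of C1qc was lower in 12 of 12. These counts share 1 library per genotype. C1q in B- and T-cell-like cells is read below as background from free RNA, so the 12 types are not separate observations.

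C1q transcripts were also counted in cells that are not known to make them. B-cell-like cells had 246 and 228 CPM of C1qa, and T-cell-like cells had 216 and 219 CPM. Outside macrophage-like cells the lowest wild-type level was 177 CPM, in type 1 dendritic-like cells, and the highest 345 CPM (325 to 366), in patrolling-monocyte-like cells. The proportions of C1qa, C1qb and C1qc in B-cell-like cells were 39.5%, 35.1% and 25.4% in the wild-type library and 39.6%, 39.2% and 21.2% in the knockout. After each cell was thinned to 1000 UMIs, C1qa had a UMI in 92.2% of wild-type macrophage-like, 22.4% of B-cell-like and 21.8% of T-cell-like cells. In the knockout library these shares were 85.9%, 19.7% and 20.4%. Before thinning, with medians of 10239, 3450 and 5486 UMIs per cell, the wild-type shares were 97.7%, 57.7% and 71.0%. The B- and T-cell-like values are read as the background that free RNA leaves in droplets, and they are given below for each gene. Monocyte- and neutrophil-like cells had wild-type C1qa levels above it under the marker gate. So did endothelial-like (271 CPM) and mesenchymal-like cells (257 CPM), by less. In the knockout library mesenchymal-like cells had 289 CPM, against 242 and 245 CPM in classical- and patrolling-monocyte-like cells. With clusters in place of the gate, C1qa stood at 215 CPM in classical-monocyte-like and 250.4 CPM in patrolling-monocyte-like cells, against 249 CPM in B-cell-like and 218 CPM in T-cell-like cells. For monocytes the excess thus depended on how cells were grouped. Of the 583 wild-type cells in classical-monocyte-like clusters, 171 were in a cluster with Elane, Mpo and Prtn3 among its top genes. The gate and the clusters therefore did not compare the same cells. Neutrophil clusters had 273 CPM.

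C3, the protein on which all activation pathways converge, was spread over several types. In cholangiocyte-like cells, the epithelium of bile ducts, it stood at 739 CPM (711 to 768) in 179 wild-type cells and 592 CPM (567 to 617) in 175 knockout cells. Mesenchymal-like cells had 498 CPM (471 to 525) and 321 CPM (301 to 341). Classical-monocyte-like cells had 199 and 148 CPM, neutrophil-like cells 249 and 118, and macrophage-like cells 70.9 and 40.7. B-cell-like cells had 26.6 and 22.3 CPM and T-cell-like cells 27.3 and 21.8, so the C3 level of cholangiocyte-like cells was 27.0 and 27.1 times that of T-cell-like cells. Thinned to 1000 UMIs per cell, 39.9% and 37.8% of cholangiocyte-like cells had a C3 UMI, against 3.66% and 2.38% of T-cell-like cells.

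Rare types below the 50-cell limit had higher C3 levels still. The 15 mesothelial-like cells (the lining of the liver surface) of the wild-type library reached 9367 CPM and held 13.3% of all C3 UMIs in that library. The knockout library had 1 such cell. Hepatocyte-like cells, of which non-parenchymal preparations should keep few, numbered 6 and 20 and stood at 1449 and 2129 CPM. When cells were instead grouped by clustering without the complement genes, a hepatocyte-like cluster of 49 wild-type and 85 knockout cells had 1502 and 1754 CPM of C3. That cluster held 5.46% and 14.3% of all C3 UMIs. Under the marker gate, cells with no type held 15.6% and 26.4% of C3 UMIs. Cells in clusters with no type held 1.43% and 2.81%.

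The C3 ratio was -0.63 (-0.75 to -0.52) in mesenchymal-like cells and -0.32 (-0.40 to -0.24) in cholangiocyte-like cells. A mean over cells in place of summed UMIs gave 0.12 in cholangiocyte-like cells, with 597 and 647 CPM, so the direction there depended on the setting. The 5 cholangiocyte-like cells with most C3 held 20.5% and 27.7% of its UMIs there. In neutrophil-like cells the log2 ratio was -1.08 (-1.23 to -0.94), but 5 wild-type cells held 38.7% of the C3 UMIs there. With those cells and the 5 richest knockout cells left out it was -0.51, and between neutrophil clusters it was -0.28. The 5 wild-type cells had a median of 8380 UMIs, against 2399 for the type, and a median of 0 of 8 mesothelial markers (0 to 7), 2 macrophage and 2 cholangiocyte markers.

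**Figure D2:**
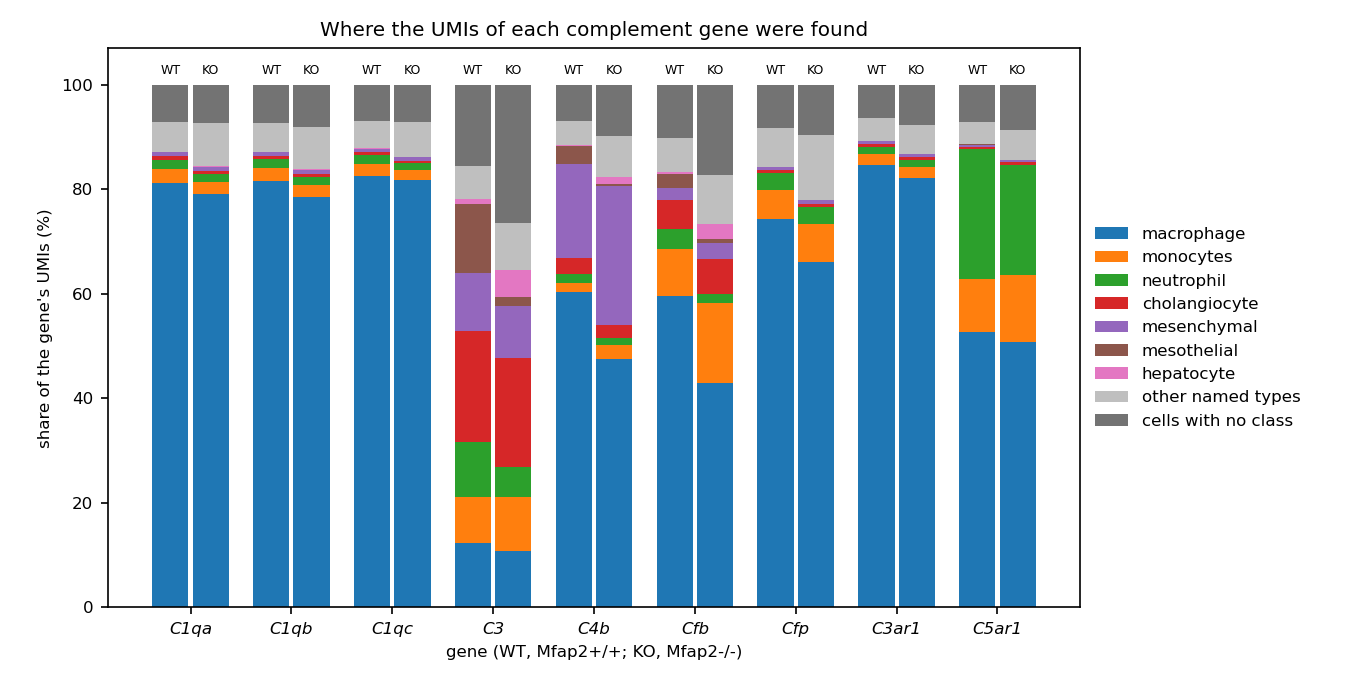
Share of each gene's UMIs (vertical axis, %) held by each cell type in the Mfap2+/+ (WT) and Mfap2-/- (KO) library; each bar sums to 100% and dark grey is cells with no type. Macrophage-like cells hold most C1q, Cfp and C3ar1 UMIs, whereas C3 is spread over cholangiocyte-, mesenchymal-, mesothelial-like and myeloid cells.

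C4b encodes complement C4, the thioester protein cleaved by C1s. It was highest in mesenchymal-like cells, at 262 CPM (243 to 282) and 187 CPM (172 to 202), a log2 ratio of -0.49 (-0.65 to -0.33). The 2045 wild-type macrophage-like cells had a lower level, 113 CPM (108 to 117), but held 60.3% of all C4b UMIs. Knockout macrophage-like cells had 39.3 CPM (37.0 to 41.8), a log2 ratio of -1.52 (-1.62 to -1.41), and 47.5% of C4b UMIs. Mesenchymal-like cells held 18.1% and 26.5%. B-cell-like cells had 8.78 and 3.29 CPM, with a log2 ratio of -1.41 (-2.17 to -0.68), and T-cell-like cells 7.68 and 4.39. Thinned to 1000 UMIs, 9.96% and 4.01% of macrophage-like cells had a C4b UMI, against 0.714% and 0.234% of B-cell-like cells.

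Cfb encodes the serine protease of the alternative pathway convertase. In macrophage-like cells it stood at 148 CPM (143 to 153) and 41.8 CPM (39.4 to 44.3), with a log2 ratio of -1.82 (-1.92 to -1.73). Only 0.23% of genes in these cells had a lower ratio. Patrolling-monocyte-like cells had 112 CPM (100.5 to 124) and 60.9 CPM (54.5 to 67.8), with a ratio of -0.88 (-1.10 to -0.66). Their level was below that of macrophage-like cells in the wild-type library and above it in the knockout, with intervals that did not overlap in either. Cholangiocyte-like cells had 79.9 and 48.9 CPM, and the hepatocyte-like cluster 253 and 288 CPM. The 15 wild-type mesothelial-like cells had 834 CPM of Cfb, and they had 782 CPM of C4b. The background in T-cell-like cells was 10.6 and 3.81 CPM. Thinned to 1000 UMIs, 11.2% and 3.82% of macrophage-like cells had a Cfb UMI, against 0.844% and 0.454% of T-cell-like cells.

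Cfp encodes properdin, which stabilises the alternative pathway convertase. Its level in macrophage-like cells was 439 CPM (430 to 448) and 209.6 CPM (204 to 215), a log2 ratio of -1.07 (-1.11 to -1.02). Type 2 dendritic-like cells followed with 171 and 106 CPM and classical-monocyte-like cells with 120 and 97.3 CPM. Patrolling-monocyte-like cells had 67.0 and 32.9 CPM, a ratio of -1.02 (-1.32 to -0.73), and Cfp was the only one of the 9 lower by at least 2-fold there, as were 1.77% of genes. B-cell-like cells had 35.1 and 17.7 CPM. Thinned to 1000 UMIs, 30.5% and 15.6% of macrophage-like cells had a Cfp UMI, against 4.38% and 1.64% of B-cell-like cells.

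C4b, Cfb and Cfp were also lower in the knockout library at the low levels of types read as background, by other amounts. In B-cell-like cells the ratios were -1.41 for C4b, -0.91 for Cfb and -0.99 for Cfp, and in T-cell-like cells -0.80, -1.46 and -0.85. Counts were small there, between 26 and 156 UMIs. The shares of all genes lower by at least 2-fold were 1.36% in B-cell-like and 1.47% in T-cell-like cells. C4b, Cfb and Cfp were lower by at least 2-fold in natural-killer-like cells too, as were 1.29% of genes, C4b in cholangiocyte-like cells (-1.06), as were 1.97%, and Cfb in endothelial-like cells (-1.36), as were 3.26%. Knockout natural-killer-like cells held only 7 UMIs of C4b, 12 of Cfb and 36 of Cfp. The intervals there were -3.12 to -0.49, -2.24 to -0.20 and -1.68 to -0.53, so each also held differences smaller than 2-fold. In neutrophil-like cells C3, C4b and Cfb were lower by at least 2-fold under the marker gate, as were 4.2% of genes. For C3 and C4b this depended on the gate. Between neutrophil clusters Cfb was at -1.18 and C3 at -0.28, and C4b stood at 9.95 and 7.78 CPM (30 and 24 UMIs). When the T-cell level was subtracted in each library, the macrophage ratio of C3 moved from -0.80 to -1.20, whereas C4b moved to -1.59, Cfb to -1.85 and Cfp to -1.08.

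**Figure D3:**
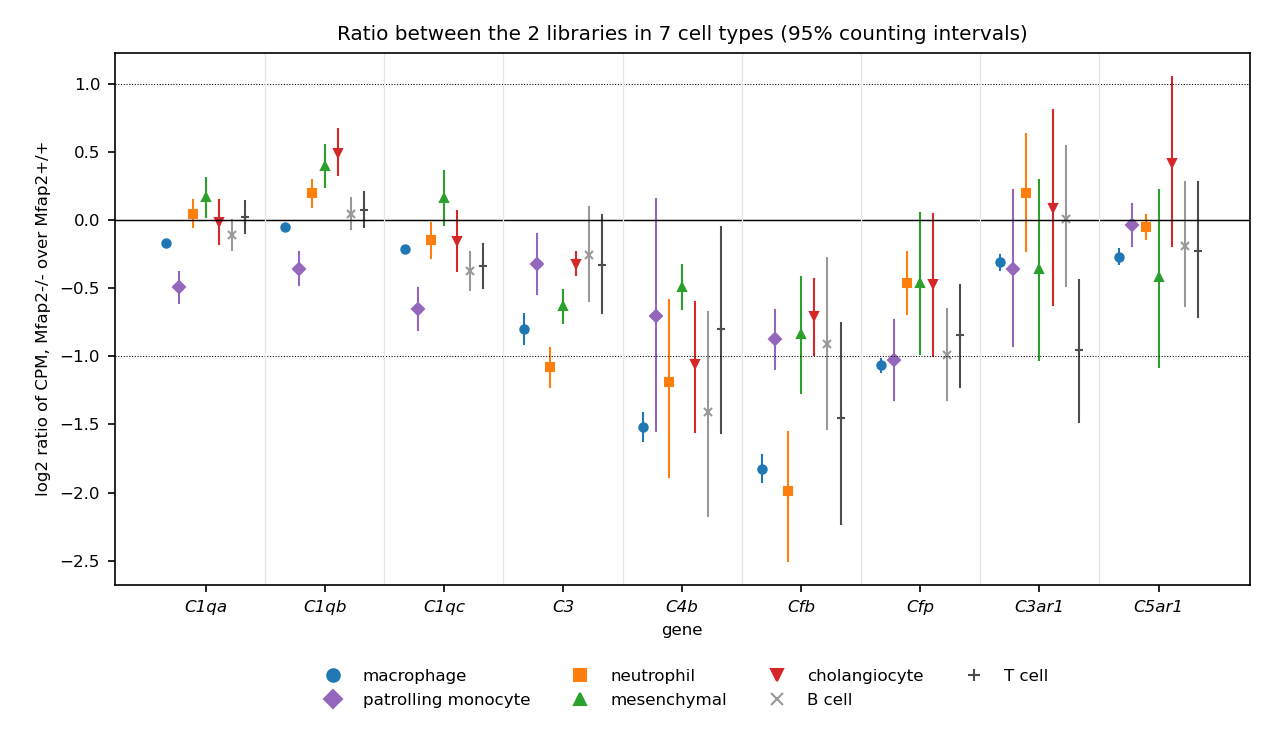
Log2 ratio of CPM, Mfap2-/- over Mfap2+/+ (vertical axis), for the 9 genes (horizontal axis) in 7 cell types, with 95% counting intervals as lines; dotted lines mark 2-fold. Macrophage points lie between -1.82 for Cfb and -0.05 for C1qb, and those of C4b, Cfb and Cfp lie below the lower dotted line.

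The receptors were less than 2-fold lower in the knockout library in their highest types. C3ar1 followed the C1q chains: macrophage-like cells had 266 CPM (259 to 273) and 214 CPM (209 to 220) and held 84.7% and 82.1% of its UMIs. The next type, classical-monocyte-like cells, was 11.8 and 10.5 times lower. The log2 ratio in macrophage-like cells was -0.31 (-0.36 to -0.26), and -0.65 after thinning each cell to 1000 UMIs. Thinned shares of cells with a C3ar1 UMI were 23.7% and 16.1%, against 1.97% and 0.908% of T-cell-like cells.

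C5ar1 was highest in neutrophil-like cells, at 437 CPM (419 to 455) and 422 CPM (404 to 441), a log2 ratio of -0.05 (-0.14 to 0.04). Macrophage-like cells had 226 CPM (220 to 233) and 188 CPM (182 to 193), a ratio of -0.27 (-0.33 to -0.21), and held 52.7% and 50.9% of C5ar1 UMIs. Patrolling-monocyte-like cells came next with 176 and 171 CPM, then classical-monocyte-like cells with 86.2 and 74.7. In the wild-type library the intervals of these 4 types did not overlap. Thinned to 1000 UMIs, 41.6% and 40.0% of neutrophil-like cells had a C5ar1 UMI, against 1.69% and 0.908% of T-cell-like cells. The neutrophil level was 689 and 614 CPM when clusters replaced the marker gate.

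Macrophage-like cells are a mixture of resident Kupffer cells and recruited cells, so they were split by how many of 8 Kupffer markers (Clec4f, Vsig4, Timd4, Folr2, Clec1b, Cd163, Cd5l and Slc40a1) each cell held. Clec4f and Vsig4 were also gate markers. Cells with 6 to 8 markers numbered 407 of 2045 and 277 of 2130, and cells with 0 to 2 were 33.2% and 42.1%. Cfb was higher with more markers, from 51.7 to 311 CPM in the wild-type library and from 21.9 to 97.9 in the knockout, 6.02-fold and 4.47-fold. C4b differed 4.16-fold and 5.17-fold, Cfp 2.76-fold and 3.95-fold, and C3 2.58-fold and 1.80-fold between the same bins. C1qa differed 1.14-fold and 1.43-fold and C1qc 1.23-fold and 1.56-fold in the same direction. C1qb was level in the wild-type library (0.994-fold) and 1.18-fold higher in the knockout. The receptors ran the other way: C3ar1 was 1.65-fold and 1.35-fold, and C5ar1 1.93-fold in both libraries, higher in cells with 0 to 2 markers. Cells with more markers also had more UMIs, with medians of 6571, 11099 and 13293 in the 3 wild-type bins. In the knockout bins the medians were 10229, 13943 and 16444.

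Within the 3 bins the knockout library was lower for Cfb in each, with log2 ratios of -1.24, -1.52 and -1.66 from fewest to most markers. For C4b the ratios were -1.54, -1.25 and -1.23, and for Cfp -1.19, -0.98 and -0.67. C3 gave -0.83 at 0 to 2 markers, -0.05 at 3 to 5 and -1.34 at 6 to 8, with no order by marker count. C1qa and C1qb were slightly higher in the knockout library at 6 to 8 markers, by 0.04 and 0.13. The bins were not equal in depth or in marker levels between the libraries. Cd5l stood at 657 and 175 CPM at 0 to 2 markers and at 6080 and 3772 CPM at 6 to 8. Clec4f went the other way at 6 to 8 markers, with 740 and 970 CPM.

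**Figure D4:**
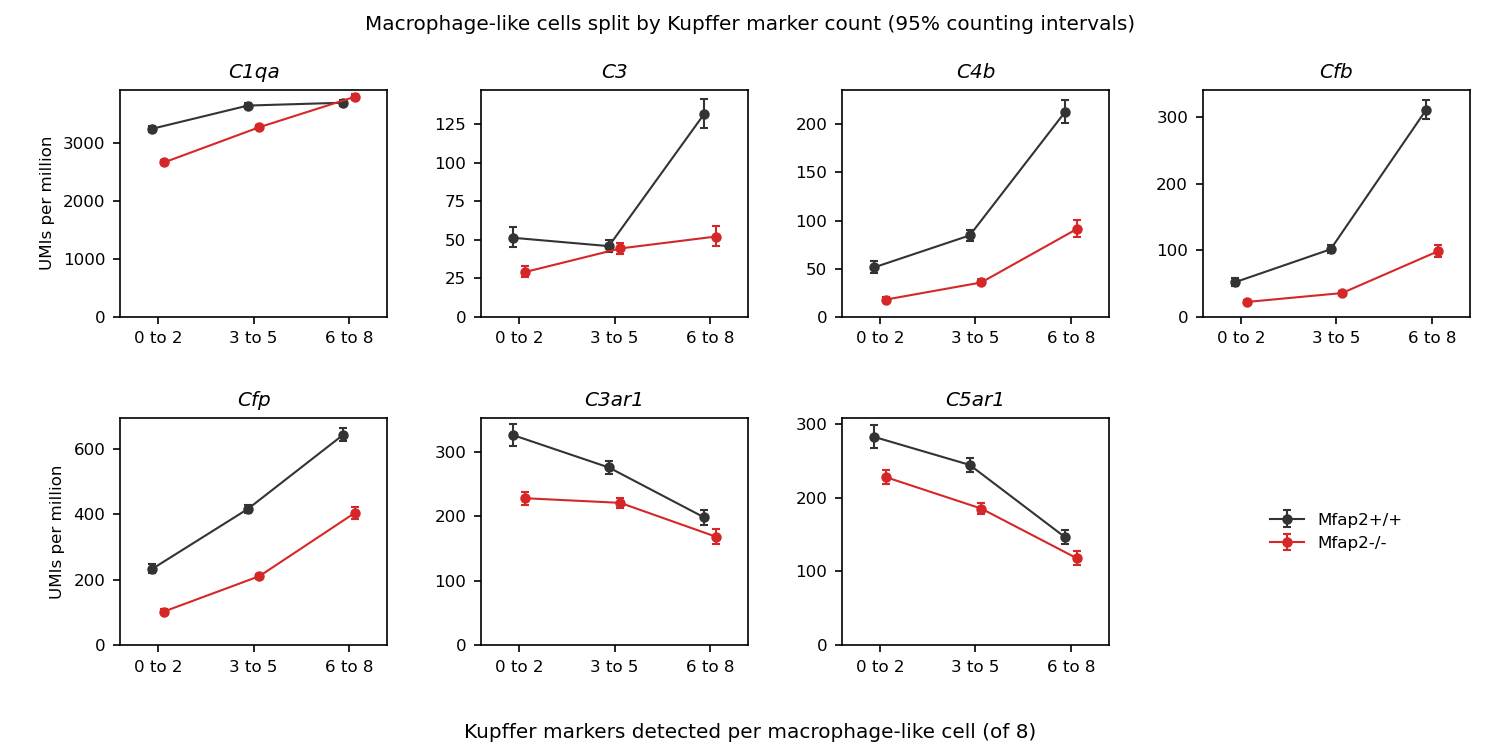
Level (CPM, vertical axes from 0) of 7 complement genes in macrophage-like cells with 0 to 2, 3 to 5 and 6 to 8 Kupffer markers, in the Mfap2+/+ (black) and Mfap2-/- (red) library, with 95% counting intervals. C4b, Cfb and Cfp are higher with more markers and lower in the knockout library in every bin, and the receptors are lower with more markers.

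Clustering without the complement genes divided most macrophage-like cells into 3 clusters. One cluster, led by Cd5l, Clec4f, Cd163 and Marco, held 40.0% of wild-type but 18.5% of knockout macrophage-like cells. One led by Ms4a7, Ccl12 and Fcgr1 held 37.9% and 58.0%. One led by Gpnmb, Mmp12 and Arg1 held 14.3% and 11.4%. Cfb stood at 262, 59.2 and 20.4 CPM in these clusters of the wild-type library and at 101, 30.8 and 9.87 CPM in the knockout. Within them its log2 ratios were -1.37, -0.94 and -1.03. C4b gave -0.97, -1.08 and -1.32, and Cfp gave -0.58, -0.93 and -0.43.

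When the 3 clusters and the remaining cells of the knockout library were given the shares of UMIs they had in the wild type, the macrophage ratio became -1.30 for Cfb, -1.03 for C4b and -0.64 for Cfp, so that Cfp no longer differed by 2-fold. The receptors moved the other way, to -0.44 for C3ar1 and -0.46 for C5ar1. Weighting by Kupffer marker count instead gave -1.58 for Cfb, -1.27 for C4b and -0.87 for Cfp. The cluster led by Cd5l and Clec4f held a smaller share of the knockout cells, and all 3 genes were also lower within each cluster. Whether cluster shares, genotype or library preparation lie behind these ratios was not tested. The division into clusters was chosen after seeing the data. C3ar1 was highest in the cluster led by Gpnmb, at 505 and 337 CPM, against 190 and 136 CPM in the cluster led by Cd5l. C1qa was nearly level over the clusters, between 3532 and 3765 CPM in the wild-type library.

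Over 24 points (12 cell types in 2 libraries) the genes most like each member by Pearson correlation of log2(CPM + 1) were found among 12293 others. The points of 1 library share its background, so these are descriptions. C1qa was nearest to C1qc (0.996), C1qb (0.991) and the gate marker Ms4a7 (0.983), and C3ar1 was nearest to C1qa (0.970). C5ar1 was nearest to Pilra (0.981), an inhibitory receptor of myeloid cells, and to the chemokine Cxcl2 (0.978). Cfp was nearest to Wfdc17 (0.931), C4b to Matn4 (0.948), which encodes a matrix protein, C3 to Rhou (0.923) and Cfb to Dcakd (0.866). C3 and C1qa were unrelated over these points (-0.01), and C3 and Cfb were at 0.67.

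The rest of the pathway was described from a list of 33 other complement genes, of which 32 had at least 100 UMIs and 28 also had at least 20 UMIs over both libraries in the type with their highest level. Of these 28, 9 were highest in mesenchymal-like, 7 in endothelial-like and 5 in cholangiocyte-like cells, and 1, the gate marker Vsig4, in macrophage-like cells. Among all genes with at least 500 UMIs, 11.2% and 11.9% were highest in mesenchymal-like cells. The shares were 21.2% and 20.8% for cholangiocyte-like and 5.04% and 5.1% for macrophage-like cells, so the cholangiocyte count is not above the general share. No such share was computed for endothelial-like cells. Of the 28 genes, each in its highest type, 1 was lower by at least 2-fold in the knockout library (Fcna) and 2 were higher (C8g and C9). The highest type was picked by the mean of both libraries, so C8g and C9 were placed where their knockout level was high. In the wild-type library C8g was highest in neutrophil-like and C9 in endothelial-like cells, so their ratios depend on that choice. The share of all genes was 1.94% lower in mesenchymal-like cells, 5.11% higher in classical-monocyte-like cells and 7.51% higher in cholangiocyte-like cells. The median log2 ratio of the 28 was -0.26, with 17 lower and 11 higher, where between 37.5% and 53.0% of all genes were lower in each of the 12 types.

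The proteases that work with C1q were highest in mesenchymal-like cells. C1ra stood at 179 and 118 CPM there, against 6.56 and 3.85 CPM in macrophage-like cells. C1s1 stood at 261 and 168 CPM, against 5.99 CPM in wild-type macrophage-like cells. Masp1, a protease of the lectin pathway, stood at 533 and 359 CPM. Masp2, the lectin pathway protease that cleaves C4 and C2, was low, at 2.73 and 1.41 CPM in neutrophil-like cells. C2, the partner of C4, stood at 131 and 98.2 CPM. The 6 initiation genes compared had ratios below 0 in their highest type, with a median of -0.62, where 39.2% of genes in mesenchymal-like and 46.6% in neutrophil-like cells did. The interval of Masp2 (-2.50 to 0.45) included 0, and Mbl1 and Mbl2, with under 20 UMIs in theirs and so not compared, had ratios of 1.23 and 1.05. Fcna, a ficolin that recognises sugars, stood at 175 and 61.4 CPM in mesenchymal-like cells (-1.51) and at 165 and 57.0 CPM in macrophage-like cells.

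Regulators had several sources. Serping1 (C1 inhibitor), which blocks C1r and C1s, stood at 1268 and 961 CPM in mesenchymal-like cells (-0.40). Clu (clusterin), an inhibitor of the terminal pore, stood at 9969 and 6726 CPM in cholangiocyte-like cells (-0.57), and Cfi (factor I) at 95.6 and 104 CPM. Endothelial-like cells had most Cd55, at 587 and 570 CPM, and most Cd59a, at 204 and 150 CPM, both membrane regulators. Of the terminal components, C7 stood at 52.2 and 83.4 CPM in mesenchymal-like cells (0.67). C8g was low, at 1.03 and 7.61 CPM in classical-monocyte-like cells, a log2 ratio of 2.61 (1.40 to 4.85). C9 was low too, at 2.28 and 6.39 CPM in cholangiocyte-like cells, a ratio of 1.38 (0.28 to 2.86). Cr2, the complement receptor of B cells, was highest in B-cell-like cells, with a ratio of 0.11.

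**Figure D5:**
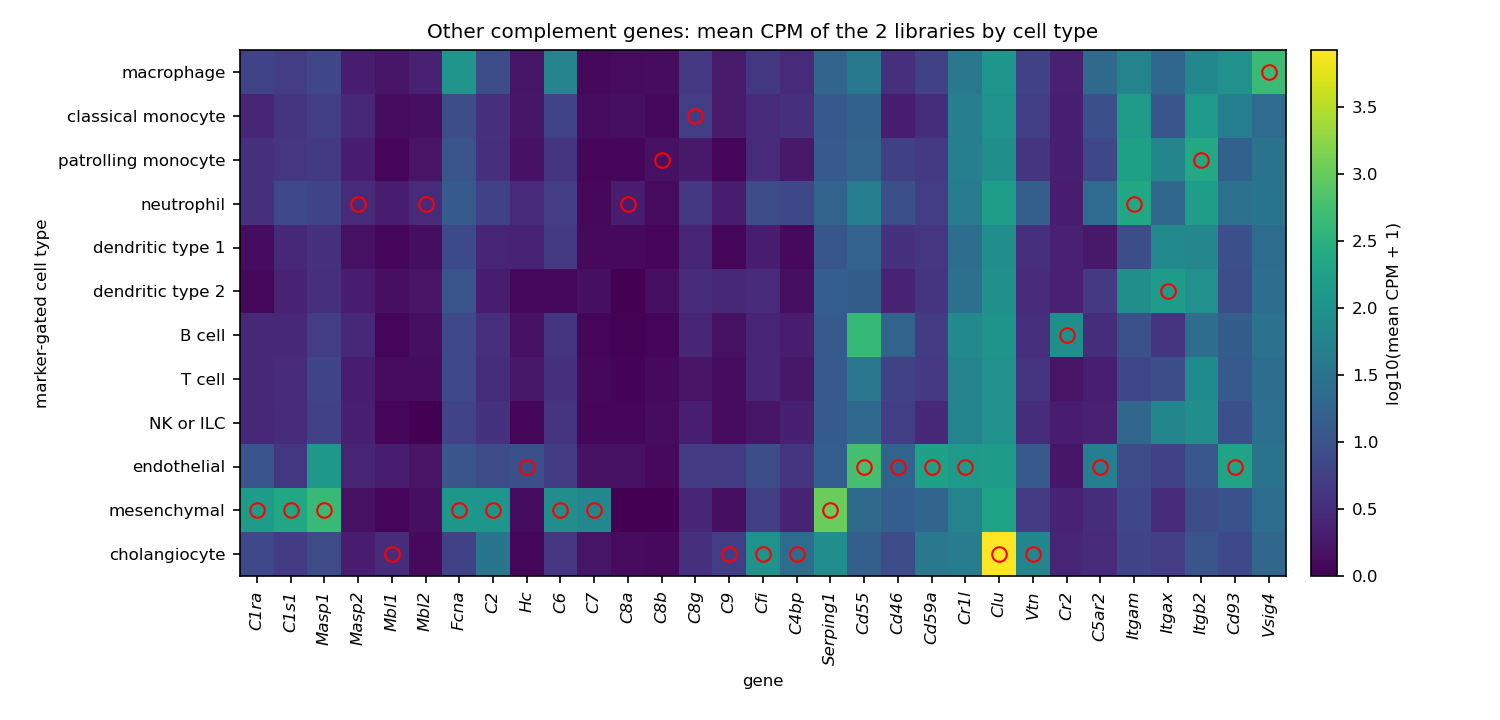
Mean level over the 2 libraries (colour, log10(mean CPM + 1)) of other complement genes (columns) in 12 marker-gated cell types (rows); a red circle marks the highest type of each gene. C1ra, C1s1, Masp1 and Serping1 are highest in mesenchymal-like cells, membrane regulators in endothelial-like cells and Clu in cholangiocyte-like cells.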

How the data were processed

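The deposited matrices hold raw counts of UMIs per gene and cell barcode. Per the file headers the authors' Cell Ranger version was 7.0.1, whereas the submitters' processing notes name Cell Ranger 3.1.0, Seurat and mm10. Per the labels, libraries were Chromium 3′ v3. Cells under 200 genes or over 20% mitochondrial UMIs were left out, and the cells with the highest Scrublet scores were removed at 0.8% per 1000 cells (1034 wild-type, 1295 knockout). The libraries shared 40 barcodes. Cells were typed from 19 lists of 8 markers, and 1 marker was not among the genes counted. Counts were summed per type and library, with 1 count added in ratios. Clustering used scanpy 1.11.5 (2000 variable genes, 30 components, 15 neighbours, Leiden resolution 1). Thinning to 1000 UMIs left out 917 and 604 cells. Intervals for shares are Clopper-Pearson. The interval steps were tested on simulated counts.

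No test between genotypes was made. The members, the gene and marker lists and the comparisons were chosen with earlier results of these data known. Named genes were the 9 members, list genes with at least 100 UMIs and the 3 genes most like each member with at least 500 UMIs. Alternatives covered stricter gates, clusters, per-cell means, thinning, doublets, the cell filter, the 5 richest cells and 2 scalings. Splits of macrophage-like cells and subtraction of the T-cell level were added after seeing the data. One gene of the complement list is counted in the list totals but its values are not reported here.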

Additional observations from a re-analysis of the deposited data

Results flagged for a closer look

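C1qa and C1qb were each lower in the knockout library in macrophage-like cells and higher in another type, with the counting interval of the other type above 0. The difference between types was not tested. C1qa had a log2 ratio of -0.17 in macrophage-like and 0.24 (0.06 to 0.42) in type 1 dendritic-like cells. C1qb had -0.05 in macrophage-like and 0.49 (0.33 to 0.66) in cholangiocyte-like cells, and its interval lay above 0 in 7 types. The median ratio over all genes was 0.13 both in type 1 dendritic-like and in cholangiocyte-like cells. Only 38.1% and 42.3% of genes had a ratio below 0 there. C1qa lay above 60.0% of genes in type 1 dendritic-like cells, and C1qb above 72.2% in cholangiocyte-like cells. The levels of C1qa in type 1 dendritic-like cells and of C1qb in cholangiocyte-like cells lay below those of B-cell-like cells in both libraries.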

How the results depend on the processing

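With 1 library per genotype no result has a replicate check, and the intervals cover counting error only. No paired analysis was possible because each genotype has 1 library. Over all alternatives run, 6 of 9 genes stayed highest in macrophage-like cells by the mean of both libraries, and 9 of 9 ratios stayed below 0 in the highest type except with a mean of per-cell CPM (8 of 9), where C3 in cholangiocyte-like cells was at 0.12. Under 5 other ways of grouping or summing cells the highest type of each gene did not change in either library, except Cfb in the knockout library, which was highest in mesenchymal-like cells after thinning. Cfb in macrophage-like cells ranged from -1.98 (median-of-ratios scaling) to -1.30 (knockout weighted to the wild-type clusters), C4b from -1.67 to -1.03 and Cfp from -1.22 to -0.64 under the same settings. C3 in neutrophil-like cells ranged from -1.21 to -0.28 and C3 in macrophage-like cells from -1.20 to -0.32. The cause of these moves was not tested. Of the list of other complement genes, 15 to 17 were lower. Thinning limits the C3 ratio in cholangiocyte-like cells to -0.15 (-0.57 to 0.28).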
